A study of Mus musculus with 12 samples.

Results

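The 9 surface molecules described here are those by which macrophages signal to T cells, or that mark activated cells, and they were followed in bone marrow macrophages exposed to lipopolysaccharide (LPS). The genes are Cd80, Cd86, Icosl, Cd274, Pdcd1lg2, Cd40, Cd83, Cd69 and Cd44. Probe sets were taken as members where the array annotation gave 1 gene symbol and that symbol was one of the 9 genes, which yielded 19 of the 45101 probe sets. A probe set was tested where at least 2 of the 12 arrays read it above their own median, and 16 of the 19 probe sets, covering all 9 genes, met this. The 3 probe sets that did not, 1 each of Cd80 (1454372_at), Icosl (1426087_at) and Cd44 (1443265_at), stayed at or below a signal of 31 on every array.

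The donors were mice whose IRAK4 is kinase dead (KD) and wild-type mice (WT). Macrophages of each strain received no LPS, or LPS (1 µg/ml) for 1 h or for 4 h, and each of these 6 groups has 2 arrays. All cultures were kept in macrophage serum-free medium with 10% fetal calf serum and 30% conditioned medium of L-929 cells. The cultures without LPS ran for 4 h, which means that a comparison of them with 1 h of LPS also compares different culture times. The replicates are described as biological, but the labels do not say whether they came from separate animals. The p-values reflect the array-to-array spread within groups, with each probe set's variance drawn in part toward that of probe sets of like signal. The allele, the strain background and the age of the mice are not stated in the labels. No probe set carried the symbol Irak4 (0 of 45101), so the transcript of the altered gene was not analysed here.

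A T cell that recognises antigen needs further signals from the presenting cell. CD80 and CD86 supply one by binding CD28, and they bind the inhibitory receptor CTLA-4 as well, while ICOS ligand binds the related receptor ICOS. PD-L1 (Cd274) and PD-L2 (Pdcd1lg2) bind PD-1 and restrain T cells, and CD40 receives a signal back from CD40 ligand on helper T cells. LPS is sensed by Toll-like receptor 4, which signals through MyD88, with IRAK4 in the complex that MyD88 forms, and through TRIF.

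Of 8 macrophage markers, 7 were above the array median on all 12 arrays. Their summed signal without LPS was higher in KD, at 21664.3 to 25917.4, than in WT, at 17847.2 to 18387.3. It was 23553.5 to 23737.3 in KD against 19862.5 to 22808.5 in WT at 1 h. At 4 h it was 20151.2 to 21629.5 in KD against 20293.3 to 21896.6 in WT. Of 7 dendritic cell markers, Flt3, Ccr7, Xcr1 and Siglech were above it on no array, while Zbtb46 was above it on 11 arrays (signals of 16 to 81.1), Itgae on 4 and Dpp4 on 2. Of 6 B cell markers, Ms4a1, Cd79b and Pax5 were above it on no array, Cd79a and Blk on 1 and Cr2 on 3. Of 7 markers of T and NK cells, Cd3d, Cd3e, Cd3g, Ncr1 and Gzmb were above it on no array, Cd4 on 2 and Cd8a on 3. The summed signals of these lists were 66.2 to 133.1 for dendritic cells, 26.8 to 121.7 for B cells and 47.7 to 92.3 for T and NK cells over all groups. Of 5 T cell partners of the members, Cd28 was above the array median on all 12 arrays (signals of 25.5 to 189.3). Icos was above it on 2, Pdcd1 and Cd40lg on 1 each and Ctla4 on no array. Cd28 was lower than without LPS at 4 h in both strains and at 1 h in KD (limma adjusted p under 0.05). Which cells its signal came from was not tested. The summed signal of 6 stromal markers was lower in unstimulated KD cultures, at 1012 to 1250.3, than in unstimulated WT cultures, at 2401 to 2505. It was 1429 to 1753 in KD against 2375 to 2514 in WT at 1 h, and 1469 to 1873 in KD against 1640 to 1905 in WT at 4 h of LPS. The summed signal of 6 neutrophil markers was 1760 to 2463 over the KD arrays and 803 to 976 over the WT arrays, and S100a8 gave most of it. S100a8 was above the median on all 12 arrays, Camp on 10 (signals of 10.8 to 85.8), Elane on 4 and Ltf on 1. S100a9 and Mpo were above the median on no array. The part that these cells play in the strain differences was not tested. Array medians were 24.2 to 26.9 in KD and 18.9 to 22 in WT at the same trimmed mean of 150, and Spearman's correlation between the 2 arrays of a group was 0.879 to 0.913 across probe sets. KD unstimulated replicate 1 had the highest log2 ratios of 3' to 5' control probe set signal, 1.35 for Gapdh and 3.04 for beta-actin. The other arrays had at most 1.17 and 2.85.

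LPS raised most of the 9 genes in both strains. Changes are given as log2 differences with the standard error (SE) of the fit, on the scale of log2(signal + 4.4), which understates the change of dim probe sets, and a gene was called at a limma adjusted p under 0.05. After 4 h, 7 of 9 genes were called higher in KD, against a background of 5.3% of all tested probe sets called higher, with a median log2 difference of 1.60 over the 9 genes and of -0.05 over all tested probe sets. In WT, 7 of 9 were called higher at 4 h, against a background of 6.95%, with medians of 1.24 and -0.12. These were Cd40, Cd69, Icosl, Cd83, Cd274, Cd86 and Cd44 in both strains. At 1 h, 4 of 9 were called higher in KD (Cd69, Cd83, Cd80 and Cd274; background 3.17%) and 4 of 9 in WT (Cd69, Cd83, Cd40 and Cd274; background 2.89%). On the probe sets that stand for the genes, 0 of 9 were called lower than in unstimulated cells in any of the 4 comparisons by limma, and 0 had a lower value at an unadjusted p under 0.05. Over all 16 tested probe sets 0 were called lower as well, and 2 values were lower at an unadjusted p under 0.05, both of the Cd80 set 1427717_at at 1 h. The backgrounds of probe sets called lower were 2.29% at 1 h and 4.7% at 4 h in KD, and 3.23% and 10.2% in WT. Between 1 h and 4 h, 5 of 9 were called higher in KD (Cd40, Cd69, Icosl, Cd86 and Cd274; background 4.55%) and 6 of 9 in WT (Cd40, Icosl, Cd69, Cd274, Cd44 and Cd83; background 7.1%). The Cd40 probe set that stands for the gene passed the filter only through the 6 arrays where it was high, and its other 2 probe sets were above the median on all 12 arrays. In whole cultures, fewer cells that express a gene and less RNA per cell cannot be told apart.

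**Figure D1:**
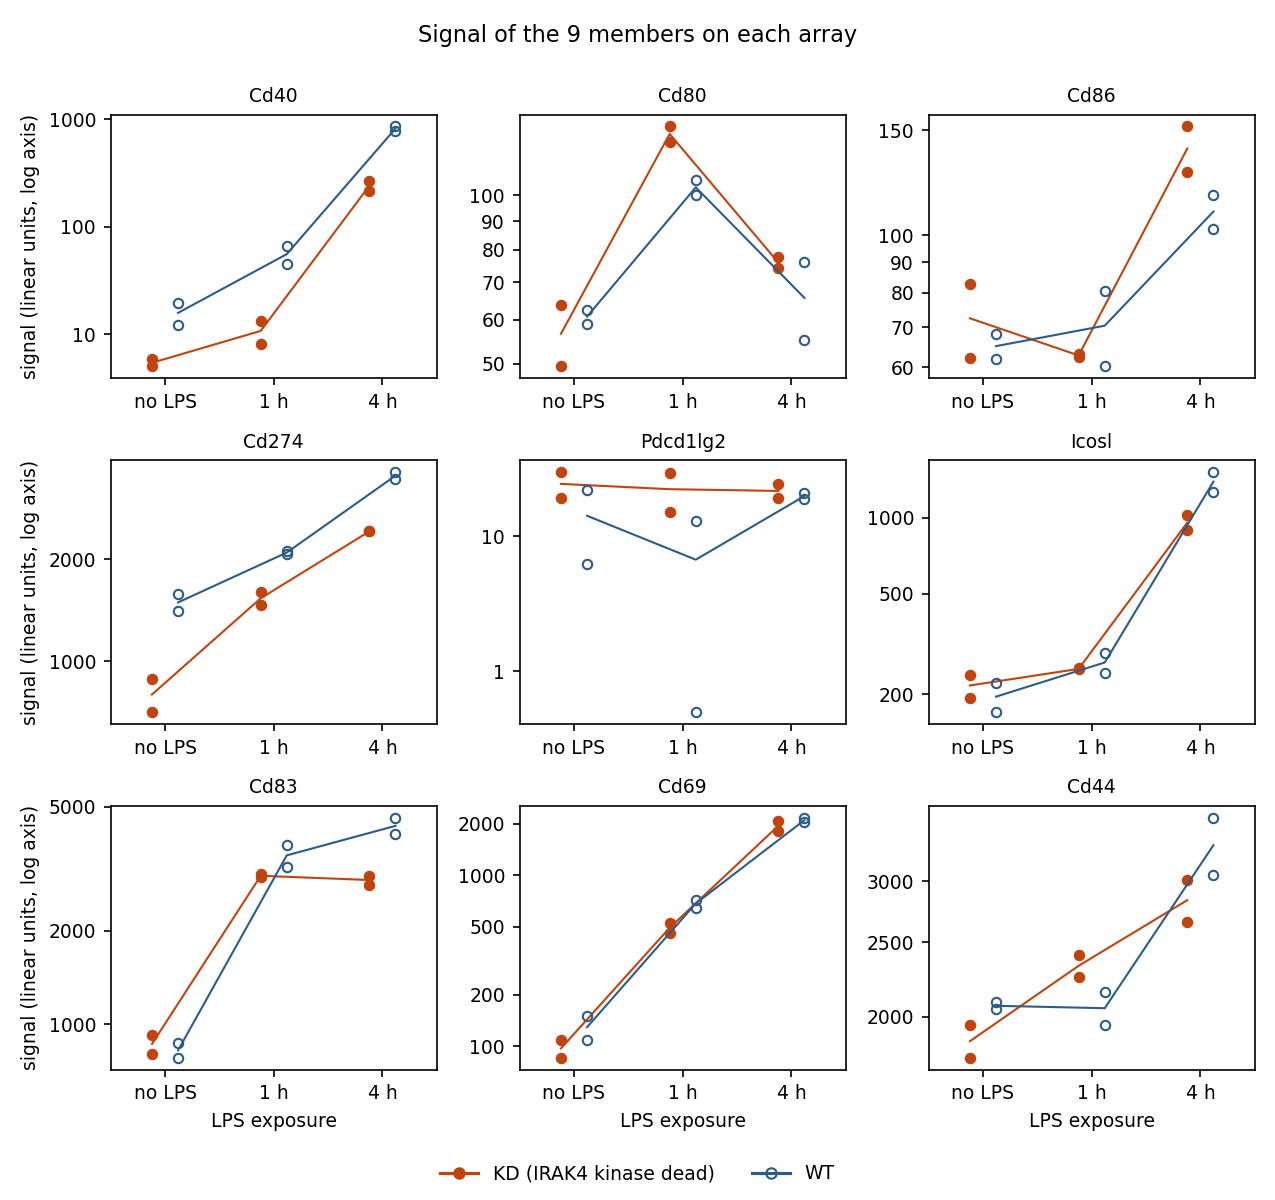
Signal (linear units on a log axis) of the representative probe set of each of the 9 genes on the 12 arrays, without LPS and after 1 h and 4 h; filled points are KD arrays, open points WT arrays, and lines join group means. Cd40, shown by its dim probe set, lies lower in KD in each condition, but its difference without LPS was not called. The brighter Cd40 sets, not shown here, overlap between the strains without LPS. Cd274 lies lower in KD in each condition, Cd83 parts between the strains at 4 h, and the Cd69 points of the strains overlap at 4 h.

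**Figure D2:**
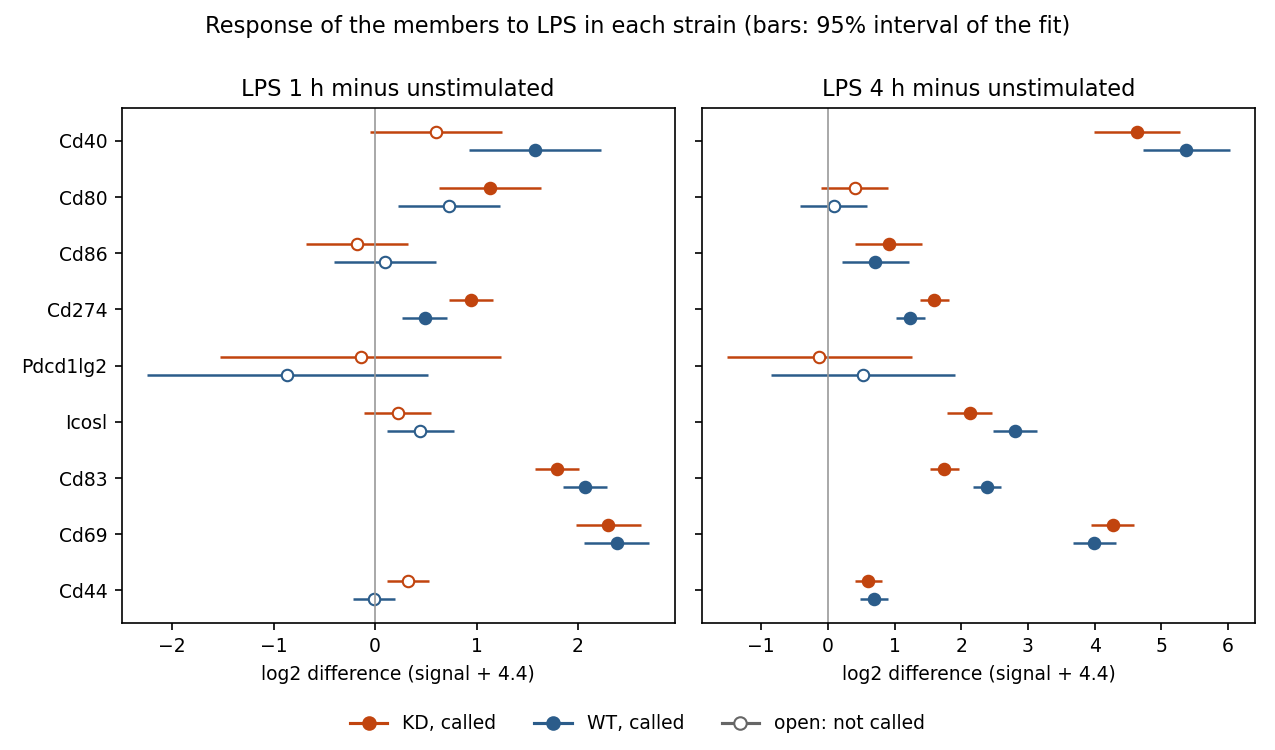
Log2 difference from unstimulated cells after 1 h and after 4 h of LPS for the 9 genes, KD above WT in each row; bars are the 95% interval of the fit. The highest values at 4 h are those of Cd40 and Cd69 in both strains, between 4.00 and 5.38, and those of Cd40 come from its dim probe set and depend on the pseudocount.

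Of the CD28 ligands, Cd86 rose at 4 h, and Cd80 rose at 1 h on 1 of its 3 tested probe sets. The Cd86 probe set 1420404_at had signals of 62.3 and 82.7 without LPS, 62.4 and 63.2 at 1 h and 127 and 152 at 4 h in KD, against 62 and 68.2, 60.2 and 80.7, and 102 and 117 in WT. Both arrays at 4 h were above all arrays of the earlier conditions in each strain. The log2 change at 4 h was 0.91 ± 0.24 in KD (adjusted p = 0.0182) and 0.71 ± 0.24 in WT (adjusted p = 0.0481). Leaving out 1 array at a time ended the WT call in 8 of 12 fits, which included each WT array of the unstimulated and 4 h groups, with values of 0.62 to 0.80. The KD call was lost without unstimulated replicate 1 (0.72), 4 h replicate 1 (1.04) or 4 h replicate 2 (0.79). The other Cd86 probe set, 1449858_at, had 70 and 75, 51.3 and 80, and 69.5 and 80.4 in KD, with a 4 h difference of 0.04 ± 0.26 (adjusted p = 0.954). In WT it had 51.2 and 45.8, 63 and 77.1, and 96.4 and 95.8, and rose at 4 h by 0.93 ± 0.26 (adjusted p = 0.0174, lost without either unstimulated or either 4 h WT array, with an adjusted p of at most 0.109). The 2 Cd86 sets thus differ in KD at 4 h, and their Pearson's r over the 12 arrays was 0.59. The strains' 4 h responses differed by 0.20 on 1420404_at (95% interval -0.51 to 0.91) and by -0.89 on 1449858_at (-1.66 to -0.11), and neither difference was called (adjusted p = 0.849 and 0.243).

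Cd80 was measured by 3 tested probe sets that did not move together, with r over the 12 arrays of -0.66, -0.15 and 0.39. The brightest, 1432826_a_at, had 49.5 and 63.7 without LPS, 125 and 133 at 1 h and 74.1 and 77.6 at 4 h in KD. In WT it had 59 and 62.5, 100.2 and 107, and 76.1 and 55.1. The 1 h arrays were the highest of both strains, and the ranges of the strains without LPS and at 4 h overlapped. Its 1 h change was 1.14 ± 0.24 in KD (adjusted p = 0.00659) and 0.73 ± 0.24 in WT (adjusted p = 0.0868), and the responses differed by 0.41 (95% interval -0.30 to 1.12, adjusted p = 0.73). The KD call was lost without unstimulated replicate 1 (0.97, adjusted p = 0.0542) or 1 h replicate 2 (1.09, adjusted p = 0.0621). Probe set 1451950_a_at stayed between 47.5 and 62.4 in KD and between 40.6 and 49.2 in WT, with a 1 h change of -0.06 in KD. Probe set 1427717_at had 62 and 39 without LPS, 9.2 and 39.1 at 1 h and 56.6 and 70.6 at 4 h in KD, against 63.3 and 36.3, 26 and 16.5, and 103 and 66.7 in WT. Its 1 h change was -1.14 ± 0.46 in KD (adjusted p = 0.186) and -1.06 ± 0.46 in WT (adjusted p = 0.215), neither of them called and both opposite in sign to those of 1432826_a_at. Between 1 h and 4 h it differed by 1.48 ± 0.46 in KD (adjusted p = 0.0545) and rose in WT by 1.79 ± 0.46 (adjusted p = 0.0106; up to 0.129 without WT 1 h replicate 2 or 4 h replicate 1). The direction for Cd80 therefore depends on the probe set.

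Icosl, the ligand of ICOS, rose at 4 h in both strains. Its signals in KD were 194 and 239 without LPS, 253 and 251 at 1 h and 892 and 1023 at 4 h. In WT they were 170 and 221, 292 and 242, and 1516 and 1266. The 4 h arrays of each strain stood above all others, and those of KD lay below those of WT. The 4 h change was 2.13 ± 0.16 in KD (adjusted p = 1.74e-08) and 2.81 ± 0.16 in WT (adjusted p = 1.37e-10), while the 1 h changes of 0.22 and 0.45 were not called. The difference between the strains' responses at 4 h was -0.68 ± 0.22 (95% interval -1.15 to -0.21), which was not called (adjusted p = 0.119). The KD minus WT difference at 4 h was -0.53 ± 0.16 with an adjusted p of 0.0568, and it passed the threshold with a stricter filter (adjusted p = 0.0371), with the median as pseudocount (0.0431) and in a fit of those 4 arrays alone (0.00831).

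Promoter windows are shown for Icosl, a member with a late rise, and for the neighbouring PD-1 ligand genes Cd274 and Pdcd1lg2, of which 1 rose. Each window runs from 250 bases before to 50 after the transcription start, from RefSeq on GRCm38.p6, and capitals mark motif matches. Windows were found for 5 of the 9 genes. The motifs searched on both strands were NF-kappaB (by its consensus), AP-1 (TGANTCA), the core of the interferon-stimulated response element (by its consensus), the interferon-gamma activated site (TTCNNNGAA), the PU.1 core (GAGGAA) and TATAAA, of which the PU.1 core and NF-kappaB matches never overlapped here. They occur in 8.46%, 7.81%, 3.44%, 8.3%, 28.3% and 13.6% of the 32841 windows of the table, in that order. The Icosl window (chr10:78069118-78069417, plus strand) held 1 NF-kappaB match, that of Pdcd1lg2 (chr19:29410669-29410968, plus strand) 1 NF-kappaB and 1 PU.1 core match, and that of Cd274 (chr19:29367188-29367487, plus strand) 0 matches. A match is a description of the letters and not a site.
Icosl: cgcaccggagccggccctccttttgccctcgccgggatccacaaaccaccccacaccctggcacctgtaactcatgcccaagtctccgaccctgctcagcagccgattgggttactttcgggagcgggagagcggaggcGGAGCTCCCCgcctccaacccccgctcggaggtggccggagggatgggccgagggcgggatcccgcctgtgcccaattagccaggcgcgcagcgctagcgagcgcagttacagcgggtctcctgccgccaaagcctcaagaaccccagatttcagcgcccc
Cd274: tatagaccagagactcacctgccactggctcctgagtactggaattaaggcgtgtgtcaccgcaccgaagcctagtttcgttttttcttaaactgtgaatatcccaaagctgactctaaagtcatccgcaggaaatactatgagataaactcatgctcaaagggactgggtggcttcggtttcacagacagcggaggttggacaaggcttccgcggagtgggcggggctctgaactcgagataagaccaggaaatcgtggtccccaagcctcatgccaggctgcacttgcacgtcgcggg
Pdcd1lg2: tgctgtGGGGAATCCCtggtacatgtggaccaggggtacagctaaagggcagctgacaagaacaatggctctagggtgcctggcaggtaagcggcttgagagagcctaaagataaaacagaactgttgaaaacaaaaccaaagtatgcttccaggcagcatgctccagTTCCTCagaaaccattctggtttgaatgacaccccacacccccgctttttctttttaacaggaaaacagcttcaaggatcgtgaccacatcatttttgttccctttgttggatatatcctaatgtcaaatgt

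In the windows not printed, Cd80 held 1 AP-1 and 1 TATAAA match and Cd44 held 2 PU.1 core matches. An NF-kappaB match occurred in the window of Icosl, which rose at 4 h, and in that of Pdcd1lg2, for which no change was called. It was in the window of neither Cd274, Cd80 nor Cd44.

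Of the PD-1 ligands, Cd274 was lower in KD than in WT in each condition and rose with LPS in both strains. In KD the signals were 709 and 889 without LPS, 1601 and 1467 at 1 h and 2415 and 2414 at 4 h. In WT they were 1580 and 1403, 2117 and 2065, and 3438 and 3604. No KD array reached a WT array of the same condition, and the KD arrays at 1 h overlapped those of unstimulated WT. The KD minus WT difference was -0.90 ± 0.10 without LPS (adjusted p = 5.43e-05), -0.45 ± 0.10 at 1 h (adjusted p = 0.0431) and -0.54 ± 0.10 at 4 h (adjusted p = 0.00366). Leaving out 1 array at a time ended the 1 h call in 10 of 12 fits, all but those without a KD unstimulated array, with values of -0.51 to -0.38. With a variance prior that does not follow signal, none of the 3 differences was called (adjusted p = 0.0677, 0.314 and 0.117).

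LPS raised Cd274 by 0.94 ± 0.10 at 1 h and 1.60 ± 0.10 at 4 h in KD and by 0.49 ± 0.10 and 1.24 ± 0.10 in WT, with adjusted p of at most 0.00681. The WT change at 1 h was not called without unstimulated replicate 2 (0.40, adjusted p = 0.109) or with the prior without a trend (0.165). The KD response minus the WT response was 0.46 ± 0.15 at 1 h (95% interval 0.15 to 0.77, adjusted p = 0.224) and 0.36 ± 0.15 at 4 h (0.05 to 0.67, adjusted p = 0.236), so the larger estimate in KD was not called. The stromal marker sums given above were lower in KD without LPS and at 1 h and overlapped between the strains at 4 h, while Cd274 was lower in KD in all 3 conditions. The part of stromal cells in the Cd274 difference was not tested.

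Pdcd1lg2, the next protein-coding gene after Cd274 on chromosome 19, was near the array medians. Its signals were 19 and 29.7 without LPS, 29.5 and 15 at 1 h and 19.1 and 24.1 at 4 h in KD, against 6.2 and 22.1, 0.5 and 12.9, and 18.9 and 20.7 in WT. The probe set was above the array median on 4 of 12 arrays, and no change was called in any of the 11 comparisons (limma adjusted p of 0.179 or more, with 2 of the 11 at an unadjusted p under 0.05). At 4 h the KD minus WT difference was 0.10 with a 95% interval of -1.29 to 1.48, so a change of either direction could not be detected at this signal.

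CD40, the receptor of CD40 ligand, rose strongly by 4 h in both strains and was lower in KD than in WT at 4 h on all 3 of its probe sets. On the 2 brighter sets its 4 h change was 3.61 and 3.68 in KD, against 4.88 and 5.16 in WT. On 1439221_s_at the signals were 99.2 and 109 without LPS, 116 and 111 at 1 h and 1297 and 1344 at 4 h in KD. In WT they were 107 and 88.7, 143 and 197, and 2929 and 3053. The strains overlapped without LPS and were apart at 1 h and 4 h. The 4 h change was 3.61 ± 0.16 in KD (12.2-fold) and 4.88 ± 0.16 in WT (29.5-fold), and the KD response was lower than the WT response by a log2 difference of -1.27 ± 0.22 (adjusted p = 0.00387).

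On 1449473_s_at the KD signals were 66.2 and 50.3, 98.6 and 112, and 762 and 821, against 51.4 and 59.5, 138 and 147, and 2129 and 2128 in WT. The responses of 3.68 ± 0.17 in KD and 5.16 ± 0.17 in WT differed by -1.48 ± 0.23 (adjusted p = 0.00176). Both interactions stayed called whichever of the 12 arrays was left out, with adjusted p up to 0.0333 and 0.0209, but not with the prior without a trend (adjusted p = 0.114 and 0.0794).

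The dim probe set 1460415_a_at, which stands for Cd40 in the counts, had 5 and 5.8, 13.3 and 8.1, and 216 and 266 in KD. It had 19.4 and 12.1, 65.9 and 45.1, and 856 and 785 in WT. All KD arrays lay below the WT arrays of the same condition. The KD minus WT difference was -1.99 ± 0.31 at 1 h (adjusted p = 0.00211) and -1.76 ± 0.31 at 4 h (adjusted p = 0.00181), and it was -1.02 ± 0.31 without LPS (adjusted p = 0.066). The difference without LPS was called with quantile normalization (-1.18, adjusted p = 0.0274), the stricter filter (0.0477) and a pseudocount of 1 (-1.36, adjusted p = 0.0347). The 4 h difference was lost without WT 4 h replicate 1 (-1.70, adjusted p = 0.0562) or KD 4 h replicate 1 (-1.61, adjusted p = 0.0502), and the 1 h difference with the prior without a trend (0.0529) or in a fit of those 4 arrays alone (0.0726). The other 2 probe sets had differences of -0.55 and -0.42 at 1 h that were not called, and 0.09 and 0.06 without LPS, so the strain difference before 4 h rests on the dim set. All its unstimulated signals were below the array medians, so the size of its 4 h change depends on the pseudocount, at 3.19 to 5.23 in KD and 4.44 to 5.65 in WT between pseudocounts of 23.4 and 1. Its 4 h responses on the scale used here, 4.64 ± 0.31 in KD and 5.38 ± 0.31 in WT, differed by -0.74 ± 0.44 (95% interval -1.66 to 0.18, adjusted p = 0.463). With the median of 23.4 as pseudocount the difference was -1.24 (adjusted p = 0.0213).

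At 1 h, Cd40 rose in WT on all 3 probe sets (0.76 to 1.57) and in KD on 1449473_s_at alone (0.82 ± 0.17, adjusted p = 0.00497, up to 0.0667 without KD unstimulated replicate 2 or KD 1 h replicate 2). The WT call on 1460415_a_at was lost without WT unstimulated replicate 2 (1.31, adjusted p = 0.0572), and that on 1439221_s_at without it or WT 1 h replicate 2 (adjusted p up to 0.117). The 1 h interactions, -0.97, -0.64 and -0.48, were not called (adjusted p of 0.259 or more).

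**Figure D3:**
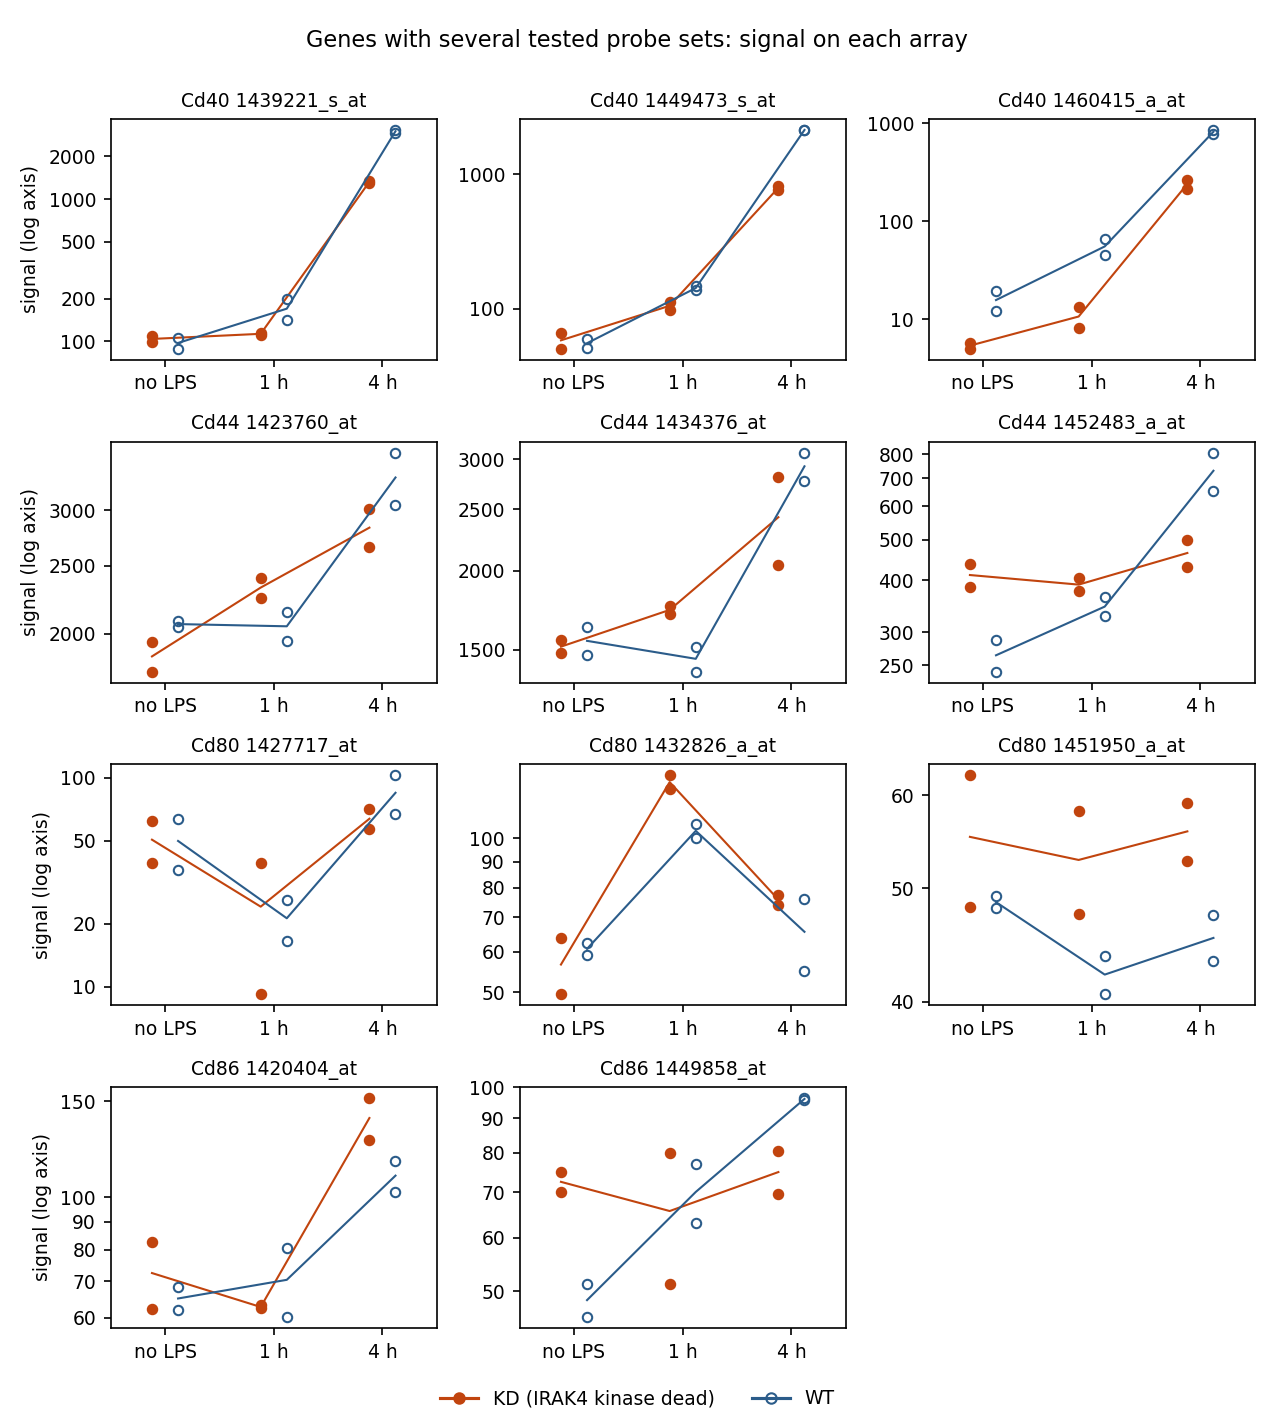
Signal (linear units on a log axis) on each array for every tested probe set of Cd40, Cd80, Cd86 and Cd44; filled points are KD arrays, open points WT arrays, and lines join group means. The 3 Cd40 sets and 2 of the Cd44 sets run alike, and the Cd80 and Cd86 sets do not.

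CD83, a protein of activated antigen-presenting cells that helps keep MHC class II and CD86 on the surface, rose at 1 h in both strains, and at 4 h it was lower in KD than in WT. The signals were 806 and 925 without LPS, 2966 and 3035 at 1 h and 2812 and 3005 at 4 h in KD. They were 870.3 and 781, 3202 and 3777, and 4602 and 4079 in WT. The strains overlapped without LPS, were apart by a small gap at 1 h and by a larger one at 4 h. The 1 h change was 1.79 ± 0.10 in KD and 2.07 ± 0.10 in WT, and the 4 h change was 1.75 ± 0.10 in KD and 2.39 ± 0.10 in WT. Between 1 h and 4 h the difference was -0.05 ± 0.10 in KD (adjusted p = 0.863) and 0.32 ± 0.10 in WT (adjusted p = 0.0421; not called in 7 of 12 fits with 1 array left out). At 4 h the KD minus WT difference was -0.57 ± 0.10 (adjusted p = 0.00205; without WT 4 h replicate 1 it was -0.49, adjusted p = 0.0599). The KD response was below the WT response at 4 h by a log2 difference of -0.64 ± 0.15 (adjusted p = 0.02). That call was lost without WT unstimulated replicate 2 (-0.56), WT 4 h replicate 1 (-0.55), KD unstimulated replicate 2 (-0.54) or KD 4 h replicate 1 (-0.59), and neither difference was called with the prior without a trend (adjusted p = 0.276 for the response and 0.104 for the level).

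CD69, an early activation antigen of the C-type lectin family known mainly from lymphocytes, rose at 1 h and further by 4 h in both strains. Its signals in KD were 109 and 85.6 without LPS, 461 and 527 at 1 h and 2086 and 1819 at 4 h. In WT they were 149.9 and 109, 648 and 722, and 2046 and 2170.2. The strains overlapped at 4 h, barely overlapped without LPS and were apart at 1 h, with KD lower. The change was 2.30 ± 0.15 at 1 h and 4.27 ± 0.15 at 4 h in KD, and 2.38 ± 0.15 and 4.00 ± 0.15 in WT, with adjusted p of at most 7.83e-09. No strain difference was called: KD minus WT was -0.39, -0.47 and -0.11 in the 3 conditions (adjusted p = 0.178, 0.177 and 0.758), and the 4 h responses differed by 0.28 with a 95% interval of -0.18 to 0.73.

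CD44, the hyaluronan receptor, was abundant without LPS and rose moderately by 4 h on its 2 brightest probe sets. On 1423760_at the signals were 1948 and 1767 without LPS, 2253 and 2403 at 1 h and 3012 and 2657 at 4 h in KD. In WT they were 2044 and 2087, 2150.3 and 1951, and 3057 and 3625. The 4 h arrays were the highest of each strain and were slightly apart between the strains. The 4 h change was 0.61 ± 0.10 in KD (adjusted p = 0.000333; 0.055 with the prior without a trend) and 0.69 ± 0.10 in WT (adjusted p = 4.34e-05), and 1434376_at gave 0.66 ± 0.12 and 0.91 ± 0.12. These 2 sets had an r of 0.96 over the arrays, and neither differed between the strains by a called amount.

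A different pattern was seen on the Cd44 probe set 1452483_a_at. It had 386 and 436, 376 and 404, and 429 and 499 in KD, against 287 and 242, 327 and 364, and 807 and 654 in WT. The KD arrays were above WT without LPS and at 1 h and below WT at 4 h. The 4 h change was 0.17 ± 0.14 in KD (adjusted p = 0.56) and 1.45 ± 0.14 in WT (adjusted p = 4.72e-07), and the difference of -1.28 ± 0.20 was called (adjusted p = 0.00192, at most 0.0246 with 1 array left out, 0.108 with the prior without a trend). KD was higher than WT without LPS by 0.63 ± 0.14 (adjusted p = 0.0147) and lower at 4 h by -0.64 ± 0.14 (adjusted p = 0.0117). The first call was lost without either WT unstimulated array or KD unstimulated replicate 2 (adjusted p up to 0.143), and the second without WT 4 h replicate 1 or KD 4 h replicate 1 (up to 0.208). Which Cd44 transcripts each probe set detects was not analysed here.

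Across the 9 genes, the KD minus WT comparison was counted on the probe sets that stand for them. It gave 1 called gene without LPS (Cd274), 2 at 1 h (Cd40 and Cd274) and 3 at 4 h (Cd40, Cd83 and Cd274), all lower in KD. Among the other probe sets, Cd44 1452483_a_at was called higher in KD without LPS (0.63, limma adjusted p = 0.0147). At 4 h it was called lower (-0.64, adjusted p = 0.0117), as were the brighter Cd40 sets. The Cd40 call at 1 h comes from the dim probe set alone, where the KD signals of 13.3 and 8.1 were below the array medians, and the sets above the median on all 12 arrays were not called there (adjusted p = 0.112 and 0.282). The backgrounds of probe sets called lower were 2.87%, 0.533% and 2.24%. The median difference over the 9 genes was -0.10, -0.14 and -0.23, against 0.03, 0.05 and 0.08 over all tested probe sets. For the difference between responses, 0 of 9 genes were called at 1 h by limma (background 0.326% in either direction), with 3 at an unadjusted p under 0.05 (Cd40, Cd274 and Cd44). At 4 h, 1 of 9 was called, Cd83, with a lower KD response (background 1.19% lower), and on probe sets that do not stand for their gene, Cd40 (1439221_s_at and 1449473_s_at) and Cd44 (1452483_a_at) were called lower as well. These comparisons share arrays with those against unstimulated cells. By level, WT at 4 h was the highest of the 6 groups for Cd40, Icosl, Cd274, Cd83, Cd69 and Cd44, with KD at 4 h second for all of them but Cd83. For Cd69 these leading groups overlapped. For Cd86 on 1420404_at, KD at 4 h was the highest group, whereas on 1449858_at it was WT at 4 h, and for Cd80 on its brightest set, KD at 1 h was the highest.

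**Figure D4:**
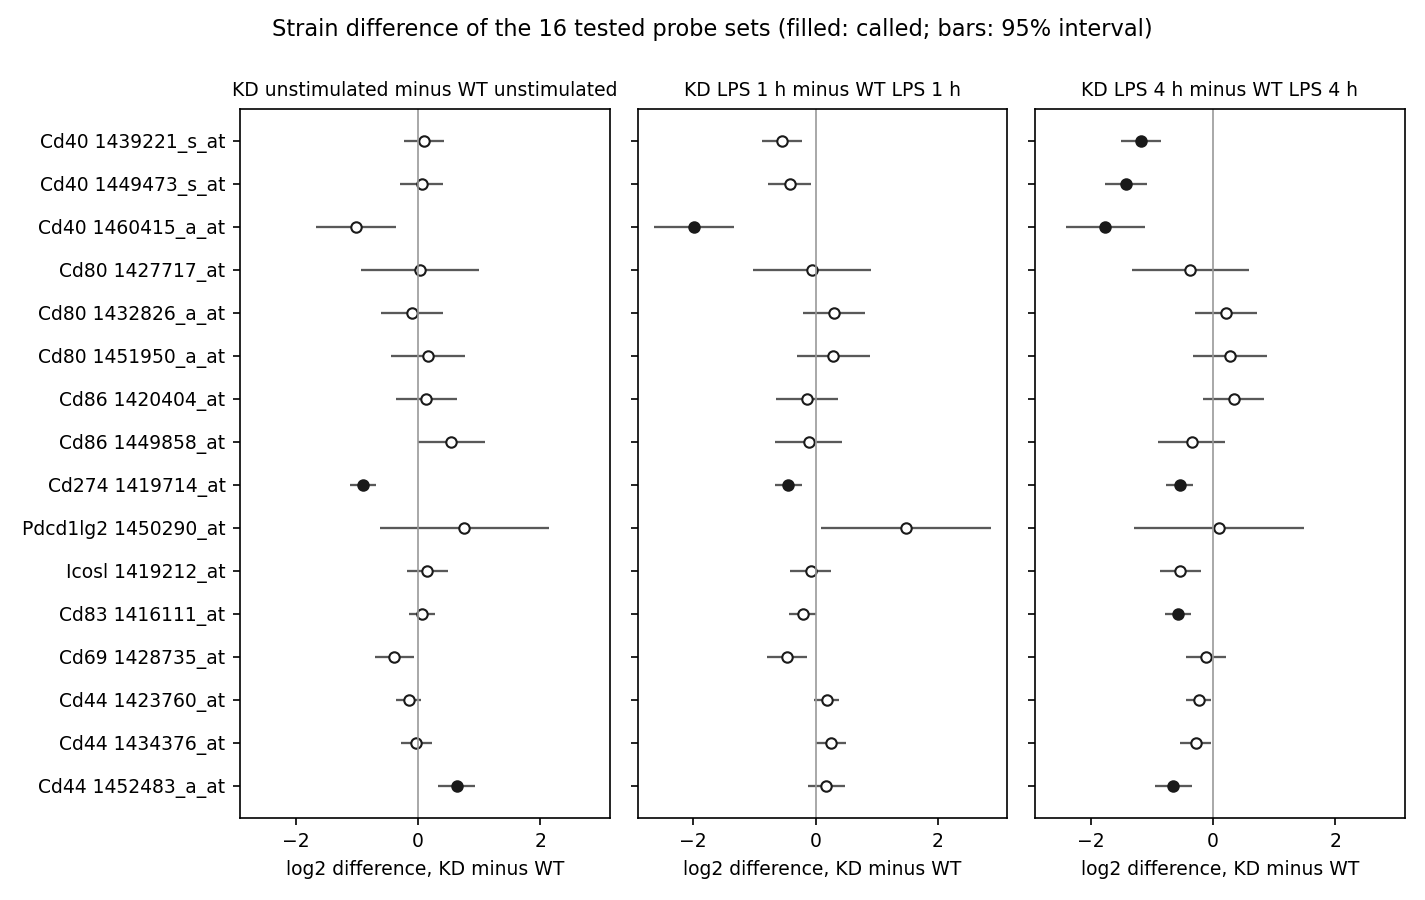
Log2 difference, KD minus WT, of the 16 tested probe sets without LPS, at 1 h and at 4 h of LPS; filled points are called at an adjusted p under 0.05 and bars are the 95% interval of the fit. At 4 h the 3 Cd40 sets lie between -1.76 and -1.18, and Cd274 lies below 0 in each condition.

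The genes whose signal ran most like each member were found by Pearson's r over the 12 arrays, which share the strains and the LPS course, among 4888 or 4889 genes with a range of group means of at least 1 on the log2 scale. Cd83 ran closest to Tnf (0.99), Cxcl2 (0.99) and Slfn2 (0.99), and Cd69 to Tlr2 (0.99), Icam1 (0.99) and Clec4e (0.99). Icosl ran closest to Jak2 (0.99), Aoah (0.99) and Gbp2b (0.99), Cd274 to Ccl7 (0.99), Slc43a3 (0.97) and Exoc3l4 (0.96), and Cd40 to Tnfrsf1b (0.99), Gbp3 (0.99) and Zc3h12c (0.98). Cd44 was closest to Enpp4 (0.97), Nlrc5 (0.96) and Arrdc4 (0.95), and Cd80, on its brightest set, to Fosl2 (0.92), Egr3 (0.92) and Dusp10 (0.92). For Cd86 the closest were 4933430I17Rik (0.92), Ppfia3 (0.91) and Pak4 (0.91), and for Pdcd1lg2 they were Crtc2 (0.88), Ntm (0.88) and Zfp276 (0.86). Among the members, Cd40 and Icosl were the most alike pair (0.94). Cd40 is read here on its dim probe set. Many genes ran nearly as close: r was over 0.9 for 187 genes with Icosl, 164 with Cd40 and 93 with Cd69. That count was 76 with Cd44, 71 with Cd274, 54 with Cd83, 4 each with Cd80 and Cd86, and 0 with Pdcd1lg2. These values are descriptions.

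Other co-stimulatory, co-inhibitory and adhesion molecules were read from a list of 33 genes, of which 30 were on the array and 25 were tested. At 4 h of LPS, 6 rose (background 5.3%) and 5 fell (4.7%) in KD, and 8 rose (6.95%) and 4 fell (10.2%) in WT. The median log2 change of the 25 genes was 0.0049 in KD and 0.057 in WT, against -0.05 and -0.12 over all tested probe sets. At 1 h, 5 rose (background 3.17%) and 1 fell (2.29%) in KD, and 3 rose (2.89%) and 1 fell (3.23%) in WT, and a single fall among 25 genes is near the background. Tnfsf9, which encodes the ligand of 4-1BB, had signals of 92.6 and 56.4 without LPS, 1317 and 1142 at 1 h and 140.4 and 237 at 4 h in KD. In WT it had 60.1 and 94.5, 1676 and 1952, and 1150 and 1007. The KD arrays fell back at 4 h, and the WT arrays fell back less. Its 4 h change was 1.28 ± 0.24 in KD and 3.76 ± 0.24 in WT, and the responses differed by -2.47 ± 0.33 (adjusted p = 0.000544; 0.108 with the prior without a trend).

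Icam1, a ligand of the integrin LFA-1, rose at 4 h by 2.84 ± 0.11 in KD and 3.14 ± 0.11 in WT, and Slamf7 by 1.19 ± 0.17 and 1.73 ± 0.17. Pvr, a ligand of DNAM-1 and TIGIT, had 430.2 and 404 in KD at 4 h and 1039 and 1025 in WT, and its responses of 0.88 in KD and 1.97 in WT differed by -1.10 ± 0.17 (adjusted p = 0.00167). The inhibitory receptors Vsir, Havcr2 and Cd200r1 fell at 4 h, by 0.82, 1.09 and 0.63 on the log2 scale in KD and by 1.27, 1.05 and 2.06 in WT. Cd276 fell by 1.38 in KD, and its value of -0.55 in WT was not called. The Cd200r1 responses differed by 1.43 ± 0.25 (adjusted p = 0.00413), with signals of 253 and 220.3 in KD at 4 h and 124 and 152 in WT. Without LPS the order was the opposite, with 409 and 331 in KD and 670 and 517 in WT. Cd200r1 was thus called lower in KD without LPS and higher at 4 h, and the difference between responses holds both. Spn, which encodes CD43, and Pilra were higher in KD than in WT in all 3 conditions, Spn by 1.25 ± 0.13 at 4 h (adjusted p = 5.11e-06). By level at 4 h, 4 of the 25 tested genes were called higher in KD (Spn, Cd200r1, Pilra and Cd84). Another 4 were called lower (Tnfsf9, Pvr, Slamf7 and Icam1), against a background of 2.24% called lower. Without LPS, 3 were higher and 1 lower (background 2.87% lower), and at 1 h, 2 and 1 (0.533% lower). The shares of all probe sets called higher are not given here.

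**Figure D5:**
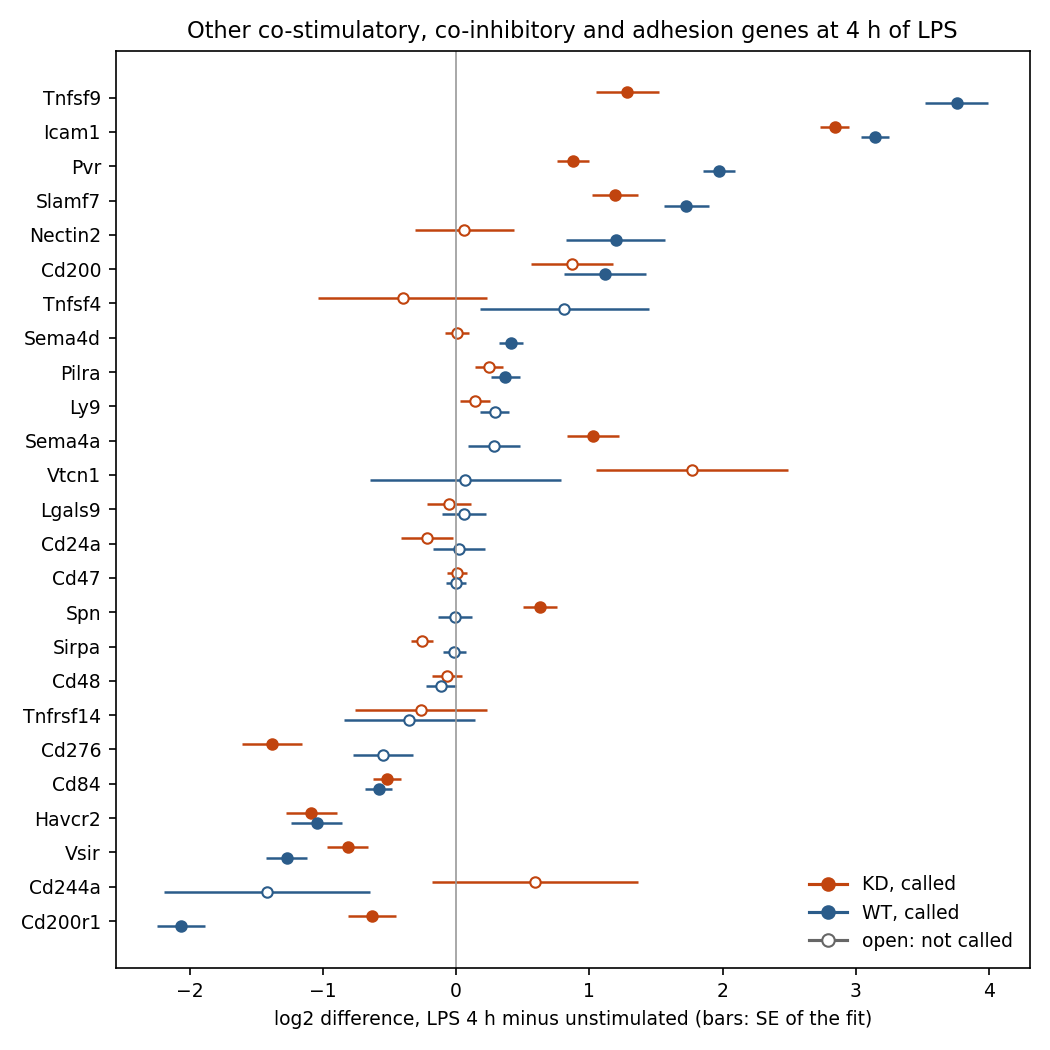
Log2 difference from unstimulated cells at 4 h of LPS for the tested genes of the list of other co-stimulatory, co-inhibitory and adhesion molecules, KD above WT in each row; bars are the SE of the fit, filled points are called and open points are not. Tnfsf9 and Icam1 lie highest in WT, at 3.76 and 3.14, and Cd200r1 lies lowest in WT, at -2.06.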

How the data were processed

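RNA of 12 macrophage cultures was extracted with RNeasy kits and labelled by the NuGEN Ovation protocol, per the labels' protocols. Each probe set has 1 deposited signal intensity per array, on a linear scale, which the authors made with the MAS5 algorithm according to the submitters' processing notes. Its settings are not given in the sources used. Trimmed of 2% at either end, the signals of every array averaged 150, and the values were used as deposited. The number of arrays limits the precision.

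Of the 45101 probe sets, 64 were array controls, and 34958 had 1 symbol, 932 several and 9211 none; of the 34958, 34754 were found in the gene table of GRCm38.p6, and 0 symbols changed. Signals were turned into log2(signal + 4.4), with 4.4 being the 20th percentile over all arrays. The filter left 27931 probe sets. A single fit in limma 3.58.1 (R 4.3.3) gave a mean to each of the 6 groups, and eBayes was run with trend = TRUE, so that the variance prior follows signal. The adjusted p-values are Benjamini-Hochberg over all tested probe sets within each of the 11 comparisons. The fit was also run on data simulated with normal noise of its own estimated variances, which cannot test the choice of the variance prior. For a gene, the brightest tested probe set by mean log2 signal represented it, identifiers with the suffixes _s_at and _x_at last, and every tested probe set was read as well.

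All 9 members were named. From the list of other molecules the rule named, per comparison, the top 3 and the bottom 3 called genes by change, and fewer were printed. For each member the 3 genes with the highest r were named. The members and lists were chosen with earlier results of these data known. Promoter windows came from RefSeq, and no window was found for 4 members, Cd40, Cd86, Cd83 and Cd69. The 2 arrays of a group carry numbers that recur in every group: over the 15 pairs of groups, deviations of same-numbered arrays had correlations of -0.068 to 0.04, and 0 were over 0.1. The alternatives tried were no filter, quantile normalization, a stricter filter (75th percentile), a pseudocount of 1 or 23.4, a prior without a trend, the second probe set of a gene, the replicate number as a block, fits of only the groups compared, and each array left out.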

Additional observations from a re-analysis of the deposited data

Results flagged for a closer look

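The difference between the strains' responses to 4 h of LPS (KD response minus WT response, log2) passed the test of the difference itself for the following probe sets. Among the members these were Cd40 1439221_s_at (-1.27 ± 0.22), Cd40 1449473_s_at (-1.48 ± 0.23), Cd83 1416111_at (-0.64 ± 0.15) and Cd44 1452483_a_at (-1.28 ± 0.20), with SE of the fit and limma adjusted p of at most 0.02. Among the other molecules of the list they were Tnfsf9 1422924_at (-2.47 ± 0.33), Pvr 1423903_at (-1.1 ± 0.17) and Cd200r1 1439703_at (1.43 ± 0.25), with adjusted p of at most 0.00413. Of the 25 tested genes of that list, 2 were thus called lower and 1 higher. Of all tested probe sets, 1.19% were called lower in this comparison, and the share called higher is not given here. With each of the 12 arrays left out in turn, all but Cd83 stayed called in every fit, and Cd83 in 8. None of the 7 was called with a variance prior without a trend, where the adjusted p was 0.0794 to 0.276.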

How the results depend on the processing

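Of the 99 results of a gene in a comparison, 40 were called, and 24 of the 40 kept their direction and their side of the threshold in every other fit run: 18 of 26 results with 20 other fits, and 6 of 14 with 21, where the gene has a second tested probe set. The count of called members was within 1.5 times the main count in every comparison of LPS with no LPS, except WT at 1 h, where it was 2 in place of 4 without WT unstimulated replicate 2. Of the 9 genes, 1 was called between the strains without LPS, and the count was 2 with quantile normalization, 2 with the stricter filter, 2 with a pseudocount of 1 and 0 with a variance prior without a trend. At 1 h the main count of 2 became 1 with no filter, 1 with a pseudocount of 1, 1 with the second probe set, 1 with the replicate number as a block, 0 with the prior without a trend and 0 in a fit of those 4 arrays alone. At 4 h the main count of 3 became 1 with the prior without a trend. For the difference between the 4 h responses the main count of 1 became 2 with the median of 23.4 as pseudocount, 2 with the second probe set and 0 with the prior without a trend. With 1 array left out, the counts ranged from 2 to 4 for WT at 1 h, 1 to 2 between the strains at 1 h, 1 to 4 between the strains at 4 h (1 without WT 4 h replicate 1) and 0 to 1 for the 4 h responses. Cd80 at 1 h in KD reversed on its second probe set, to a log2 value of -0.057. The cause of these changes was not tested, and the second probe set is another measurement. The share of all tested probe sets called was kept for the main fit only. A change of the members' counts therefore cannot be told apart from a change of calls over the whole array. The replicate number as a block also ended the call of Cd83 between 1 h and 4 h in WT (adjusted p = 0.0514), and the arrays share only a number. Quantile normalization moved the median of all probe sets at 4 h in WT to -0.053, against -0.12 as deposited. Each group has 2 arrays, and Pdcd1lg2 near the array medians, and Cd40 without LPS on its dim probe set, are limited by their low signal.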
